A study of Mus musculus with 8 samples.

Results

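Transcripts of 10 genes known from cerebellar granule cells were followed through RNA immunoprecipitation (RIP) libraries from mouse tissue labelled hippocampus: Fat2, Cbln1, Cbln3, Zic1, Zic2, Zic4, Barhl1, Mab21l1, Neurod1 and Pax6. They were selected by name from the 55401 genes of the deposited count table, after cerebellar transcripts had been seen to be abundant in every library, so their levels are given as a description without a test. In RIP an antibody pulls a protein out of lysed tissue, and RNA held by it is sequenced. The 8 libraries formed 3 groups, all from C57BL/6 animals: CaMKIIβ RIP (3 libraries, antibody against the kinase subunit encoded by Camk2b), IgG RIP (3 libraries, control antibody) and Input (2 libraries, RNA that was not immunoprecipitated). The labels give no age, sex or treatment, and do not say whether replicates came from separate animals, so the p-values below measure only the spread between libraries, which may be technical.

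Granule cells are the small excitatory neurons of the cerebellar cortex and the most numerous neurons of the brain. Their axons, the parallel fibres, form synapses on Purkinje cell dendrites, where cerebellins secreted by granule cells bridge presynaptic neurexins and postsynaptic receptors. Their precursors arise at the rhombic lip under Atoh1, and the granule cell fate is then kept by transcription factors that include Zic1, Zic2, Pax6, Barhl1 and Neurod1. Several of these factors also act elsewhere: Neurod1 and Pax6 in the dentate gyrus of the hippocampus, Zic genes in the meninges, septum and thalamus.

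All 10 genes had an Ensembl identifier that matched a RefSeq gene by position on GRCm38, and all 10 passed the count filter in each comparison. The smallest count of any of them in any library was 134, for Barhl1 in CaMKIIβ RIP replicate 2. Library totals ran from 17273957 to 28138289 counts. CaMKIIβ RIP replicate 2 stood apart: of genes whose level elsewhere in RIP predicts 20 to 50 counts, 29.05% had 0 counts there, against at most 1.74% in any of the other 5 RIP libraries. Within CaMKIIβ RIP this library gave the lowest scaled count for 6 of the 10 genes (Zic2, Zic4, Barhl1, Mab21l1, Neurod1 and Pax6).

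The genes lie on 6 chromosomes. Zic1 (ENSMUSG00000032368.14, chromosome 9, 91358058 to 91365810, minus strand) and Zic4 (ENSMUSG00000036972.14, chromosome 9, 91362413 to 91389348, plus strand) overlap on opposite strands and share 60 exon bases. Zic4 also shares 468 exon bases with an unnamed gene on the minus strand (ENSMUSG00000102803.1), which had at most 34 counts in any library. Mab21l1 (ENSMUSG00000056947.5, chromosome 3, 55782510 to 55785001, plus strand) is a single exon inside the span of Nbea, which runs the other way, and 39.4% of its exon bases are also exon bases of Nbea. The annotated exons of Neurod1 (ENSMUSG00000034701.9, chromosome 2, 79452521 to 79456751) share 201 bases with Cerkl on the same strand. Whether counting used the strand is not given in the sources used here, so reads of these overlapping genes may not be told apart. No exon base was shared with another gene of the table by Fat2 (ENSMUSG00000055333.14, chromosome 11, 55250609 to 55336564), Cbln1 (ENSMUSG00000031654.16, chromosome 8, 87468405 to 87472609), Cbln3 (ENSMUSG00000040380.14, chromosome 14, 55878913 to 55884392), Zic2 (ENSMUSG00000061524.8, chromosome 14, 122475435 to 122479852), Barhl1 (ENSMUSG00000026805.14, chromosome 2, 28907679 to 28916668) or Pax6 (ENSMUSG00000027168.21, chromosome 2, 105668900 to 105697364).

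The promoters of 3 of the transcription factors are shown, because their levels span the range described below and these windows abut the start of the annotated gene and lie mostly outside exons. For Zic1 the 42 bases inside an exon are left out. The windows come from RefSeq on GRCm38.p6, each read on the strand of its gene, with capitals at CpG dinucleotides. The Zic1 window (chr9:91365811-91366018, minus strand) lies within the span of Zic4, the Pax6 window is chr2:105668646-105668895 (plus strand), and the Barhl1 window is chr2:28916669-28916918 (minus strand).
Zic1: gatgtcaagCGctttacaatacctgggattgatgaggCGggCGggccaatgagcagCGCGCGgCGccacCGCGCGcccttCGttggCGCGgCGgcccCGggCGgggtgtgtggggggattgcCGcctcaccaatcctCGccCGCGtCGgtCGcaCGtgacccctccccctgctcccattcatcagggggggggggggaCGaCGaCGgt
Pax6: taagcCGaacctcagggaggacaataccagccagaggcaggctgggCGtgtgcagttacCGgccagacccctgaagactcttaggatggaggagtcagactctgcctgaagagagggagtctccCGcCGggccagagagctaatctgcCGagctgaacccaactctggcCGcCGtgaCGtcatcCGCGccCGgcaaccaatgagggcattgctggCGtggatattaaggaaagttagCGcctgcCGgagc
Barhl1: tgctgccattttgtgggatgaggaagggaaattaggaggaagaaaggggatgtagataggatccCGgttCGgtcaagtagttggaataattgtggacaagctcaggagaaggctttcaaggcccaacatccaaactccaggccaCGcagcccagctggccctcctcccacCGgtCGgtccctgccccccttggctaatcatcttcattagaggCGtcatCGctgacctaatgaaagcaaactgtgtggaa

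Over the full 250 bases before the start, Zic1 had 27 CpG, Pax6 15 and Barhl1 7, beside a median of 6 over 32851 mouse promoter windows. Of the 10 genes, 7 had a promoter in the table, with 9 windows in all. Among the other windows, that of Neurod1 had 22 CpG, Zic4 4, Fat2 3 and Cbln3 2. The second windows of Pax6 and Barhl1 had 15 and 12. Fat2 and Cbln3 are thus under the median though their levels in Input were high, and CpG number was not tested against level. None of the 9 windows held CAGATG (an E-box of the NeuroD and Atoh class), CAGCAGG (a motif of Zic proteins) or TATAAA on either strand. Of all windows of this length, 14.4%, 8.44% and 12.4% held these motifs. No match says only that these letters are not in these windows.

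Transcripts of the cerebellins and of Fat2 were among the most abundant in the libraries. Levels are given as CPM, counts scaled by library size and TMM over the 8 libraries, and divided by exon length in kilobases (CPM per kb) where genes are compared. Fat2, an atypical cadherin of the Fat family found on parallel fibres, alone took 0.371 to 0.454% of all counts in CaMKIIβ RIP, 0.417 to 0.433% in IgG RIP, and 0.164 to 0.175% in Input. By CPM it ranked 8th of 29023 detected genes in CaMKIIβ RIP, 8th of 31828 in IgG RIP and 16th of 33406 in Input. The 10 genes together held 0.613 to 0.686% of counts in CaMKIIβ RIP, 0.645 to 0.665% in IgG RIP, and 0.416 to 0.43% in Input.

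Per kb of exon in Input, the genes formed a high and a low set. The high set held Cbln3 at 159 ± 0.259 CPM per kb (SD, n = 2, as for all Input values), Cbln1 at 137 ± 10.2, Fat2 at 107 ± 4.94, Zic1 at 103 ± 5.43, Neurod1 at 83.3 ± 4.66 and Zic2 at 60.6 ± 0.00049. The low set held Mab21l1 at 8.84 ± 0.018, Pax6 at 7.11 ± 0.459, Zic4 at 3.76 ± 0.012 and Barhl1 at 2.06 ± 0.217. Of neighbours in this order, the Input libraries of Fat2 and Zic1 overlapped, and those of the others did not. Cbln3 ranked 71st of the 33406 detected genes per kb, Cbln1 90th and Barhl1 13695th. In CaMKIIβ RIP and in IgG RIP Fat2 came first of the 10, at 296 ± 32.0 and 301 ± 10.8 CPM per kb (n = 3 each), and ranked 34th and 29th of all detected genes per kb.

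**Figure D1:**
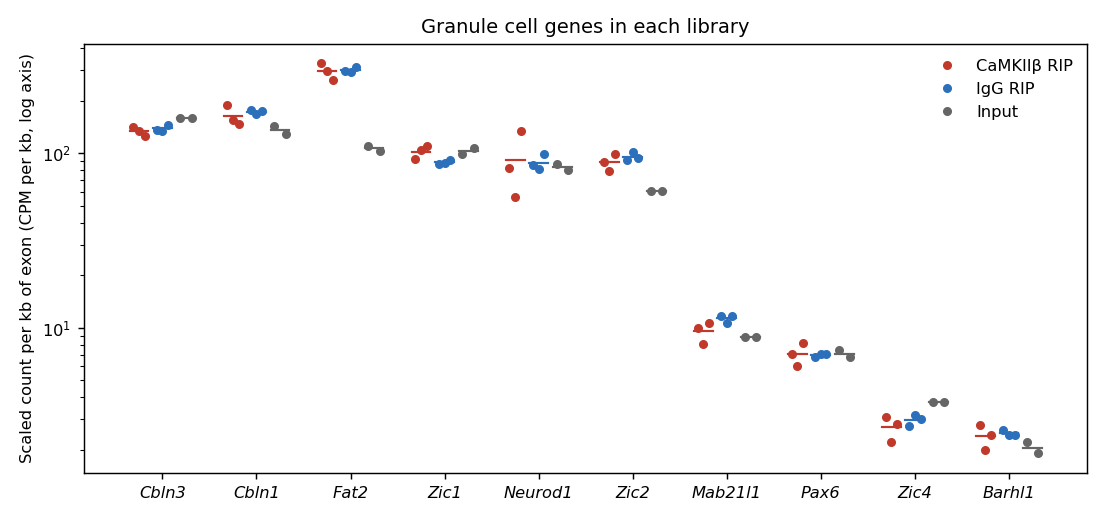
Scaled count per kb of exon of each gene (log axis), 1 point per library and a line at the group mean, with genes ordered by their Input level. Fat2 lies far above Input in both kinds of RIP library, and 6 genes are above 50 CPM per kb in every library while 4 stay below 12.

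Other markers of the same cells had a high median but a wide range. Of 12 further granule cell genes, all 12 had counts in every library, and their median in Input was 39.0 CPM per kb, where that of the 10 genes was 71.9. Whether these genes, or the Purkinje cell genes below, are also expressed by cells of the hippocampus was not tested. Gabra6, the α6 subunit of the GABA-A receptor and a defining marker of mature granule cells, was the highest of the 12, at 168 ± 0.435 in Input. The lowest were Meis1 at 5.55 ± 0.200 and Tlx3 at 3.53 ± 0.438. Atoh1, the factor of granule cell precursors, had 0 counts in all 3 CaMKIIβ RIP libraries, 0 to 4 in IgG RIP and 0 or 1 in Input. It was the lowest of 7 listed precursor genes, of which the other 6 had counts in every library. The median of the 7 in Input was 1.54 CPM per kb, with Ptch1 the highest at 17.0 ± 0.373. Of 13 Purkinje cell genes the median was 29.9 CPM per kb in Input, with Car8 at 201 ± 6.61 and Pcp2 at 18.3 ± 1.41. The lowest of these were Lhx5 at 3.32 ± 0.456 and Foxp2 at 1.09 ± 0.230.

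Markers of the hippocampus and the rest of the telencephalon were detected at lower levels. All 16 had counts in both Input libraries, with a median of 3.20 CPM per kb. Prox1, a factor of dentate granule cells, was at 14.9 ± 1.22, and Neurod6, a factor of pyramidal neurons, at 14.9 ± 0.373. The summed level of the 10 granule cell genes was set beside that of these 16 genes. It was 8.65 to 9.79 times as high in CaMKIIβ RIP, 9.57 to 9.81 times in IgG RIP, and 8.01 to 8.15 times in Input. The 10 genes were chosen after cerebellar transcripts were seen to be abundant, so this ratio only describes the lists. Mab21l1 (8.84), Pax6 (7.11), Zic4 (3.76) and Barhl1 (2.06) lay below Prox1 and Neurod6 in Input. No library of a dissected hippocampus or cerebellum is at hand for comparison. In bulk RNA the number of cells of a type and the RNA per cell cannot be told apart.

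Other tissues that use some of these genes gave the following levels. Of the meningeal markers, which mark a tissue that expresses Zic genes, Foxc1 was at 1.59 ± 0.111 and Col1a1 at 4.32 ± 0.312 CPM per kb in Input. The 5 summed to 18.4 to 21.6 in CaMKIIβ RIP, 18.7 to 20.1 in IgG RIP, and 12.0 to 12.2 in Input. The 5 thalamic and habenular markers summed to 19.5 to 21.9, 17.2 to 19.2 and 15.9 to 16.04 in CaMKIIβ RIP, IgG RIP and Input. The 7 midbrain and hindbrain markers, Hox genes among them, summed to at most 1.02 CPM per kb in any library, and Hoxb2 had 0 counts in every RIP library. The part of meningeal, thalamic or astrocytic RNA in the levels of Zic1, Zic2, Zic4 and Pax6 was not tested.

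**Figure D2:**
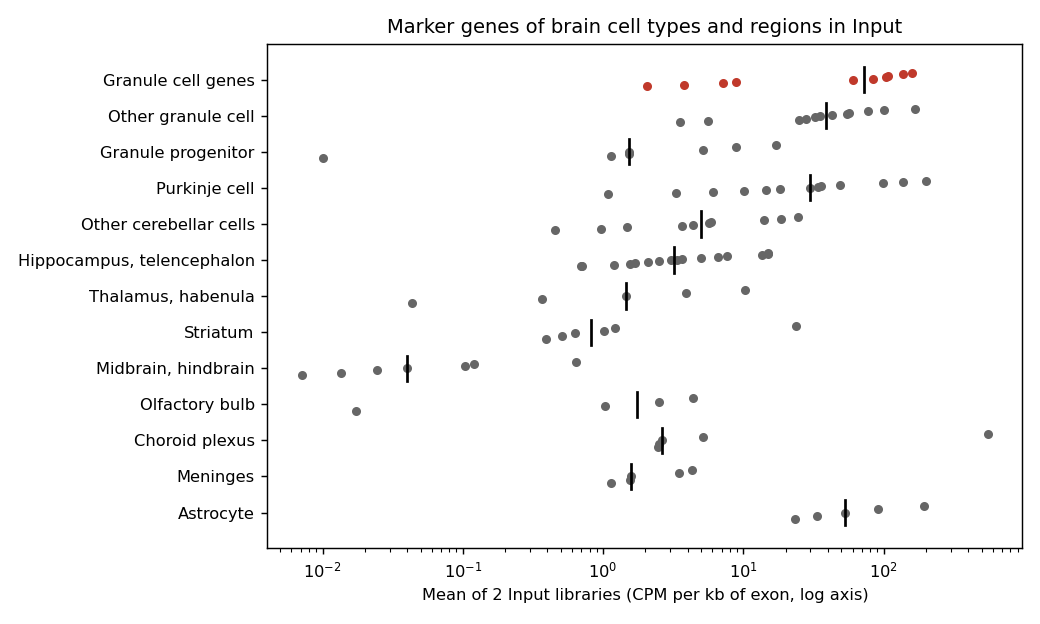
Mean level in the 2 Input libraries (CPM per kb of exon, log axis) of each gene of 13 marker lists, with a black bar at each list's median. The granule cell genes (red) have a median of 71.9, the hippocampal and telencephalic genes one of 3.20, and the midbrain and hindbrain genes lie at the low end.

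The antibodies were compared first, CaMKIIβ RIP against IgG RIP. None of the 10 genes passed the threshold, an edgeR adjusted p under 0.05 over all genes tested. That share stood beside 0% of all 20566 genes tested, of which 721 had an unadjusted p under 0.05. The median log2 fold change of the 10 genes was -0.04, beside -0.02 over all genes.

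Fat2 had 4754, 4309 and 3824 CPM in CaMKIIβ RIP replicates 1, 2 and 3, against 4304, 4262 and 4553 CPM in IgG RIP. The libraries overlapped, and the log2 fold change was -0.01 ± 0.09 (SE), with a 95% interval from -0.21 to 0.18. Zic1, a zinc finger factor of granule cells and their precursors, had 525, 595 and 626 CPM in CaMKIIβ RIP, against 495, 501 and 518 in IgG RIP. It was the 1 gene of the 10 whose libraries lay apart between the antibodies, with CaMKIIβ RIP higher, as they did for 4.58% of all genes in that direction and 7.33% in the other. Its log2 fold change was 0.22 ± 0.09, with an unadjusted p of 0.0386 and an adjusted p of 0.982 by edgeR.

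Neurod1, a basic helix-loop-helix factor that granule neurons need to survive and mature, was the most uneven of the 10 within a group. It had 225, 152 and 368 CPM in CaMKIIβ RIP replicates 1, 2 and 3, against 233, 221 and 269 CPM in IgG RIP. The highest and the lowest library of all 8 were thus both in CaMKIIβ RIP, where they differed 2.41-fold. For the other 9 genes the CaMKIIβ RIP libraries differed at most 1.4-fold. The log2 fold change of Neurod1 was 0.05 ± 0.25. It was -0.35 without CaMKIIβ RIP replicate 3 and 0.31 without replicate 2, with no call in either.

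The intervals of the other genes differed in width. The 95% interval of the log2 fold change ran from -0.29 to 0.17 for Cbln1, from -0.23 to 0.14 for Cbln3 and from -0.56 to 0.48 for Barhl1. For Mab21l1, whose protein is needed for eye development in the mouse, the log2 fold change was -0.23 ± 0.16. A p that missed the threshold does not show that the antibodies gave the same level.

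**Figure D3:**
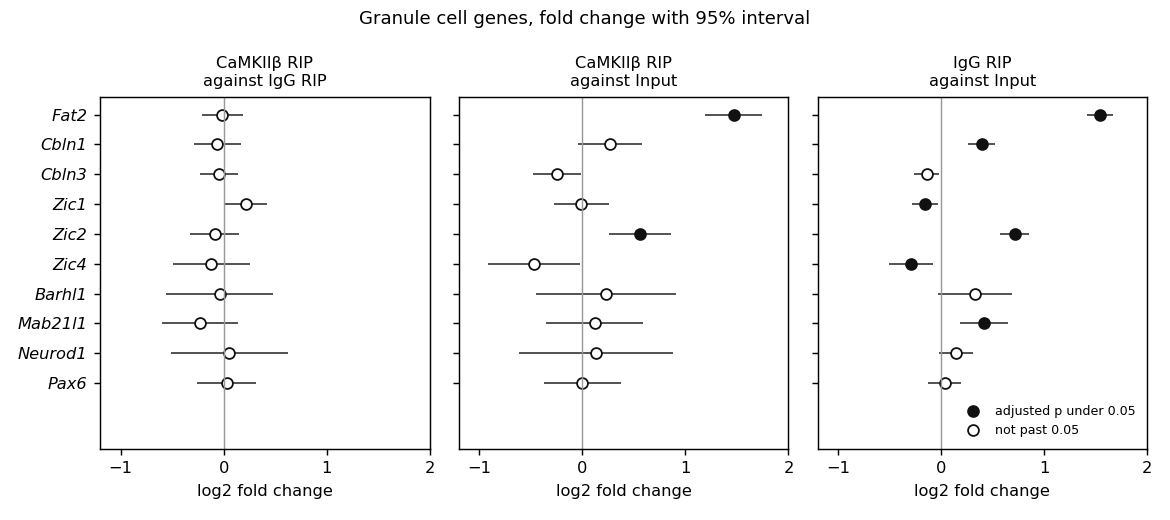
Log2 fold change of each gene with its 95% interval in the 3 comparisons, filled where the edgeR adjusted p was under 0.05. No gene is filled in CaMKIIβ RIP against IgG RIP, 2 are filled in CaMKIIβ RIP against Input and 6 in IgG RIP against Input.

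CaMKIIβ RIP was then set against Input, RNA taken without precipitation. Fat2 rose 2.76-fold and Zic2 1.48-fold, and 0 of the 10 genes were called lower. The calls were 2 higher of 10, beside 5.06% of all 22095 genes called higher and 3.4% called lower (8.45% in either direction). The median log2 fold change was 0.12 for the 10 genes and -0.12 for all genes.

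Fat2 had 4754, 4309 and 3824 CPM in CaMKIIβ RIP, against 1607 and 1506 CPM in Input. The groups lay far apart, and the log2 fold change was 1.47 ± 0.12 (SE, adjusted p = 0.00321, edgeR), above that of 98.4% of the genes tested. Zic2, a zinc finger factor of the same family as Zic1, had 258, 227 and 287 CPM in CaMKIIβ RIP, against 174.4 CPM in both Input libraries. All 3 RIP libraries were above Input, with a log2 fold change of 0.56 ± 0.13 (adjusted p = 0.0406, edgeR).

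The libraries also lay apart for 3 genes without a call. Cbln1, the cerebellin that organises the parallel fibre synapse, had 574, 473 and 449 CPM in CaMKIIβ RIP, against 437 and 393 CPM in Input, a log2 fold change of 0.27 ± 0.13. Cbln3, a cerebellin that assembles with Cbln1, lay the other way, at 690, 651 and 611 CPM in CaMKIIβ RIP, against 775 and 773 CPM in Input (-0.25 ± 0.10). Zic4, the neighbour of Zic1, had 31.8, 22.8 and 29.1 CPM in CaMKIIβ RIP, against 38.8 and 38.9 CPM in Input (-0.47 ± 0.19). Counting these, 3 of the 10 genes had libraries apart and higher and 2 apart and lower, beside 18.8% and 28.6% of all genes tested.

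The other 5 genes overlapped between the groups. Zic1 had 525, 595 and 626 CPM in CaMKIIβ RIP, against 565 and 609 CPM in Input, a log2 fold change of -0.01 ± 0.11. Pax6, a paired-box factor of granule cell precursors and of the eye, had 82.3, 70.4 and 95.7 CPM in CaMKIIβ RIP, against 86.9 and 79.3 CPM in Input. Barhl1, Mab21l1 and Neurod1 had log2 fold changes between 0.12 and 0.23, each smaller than its standard error.

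Without CaMKIIβ RIP replicate 1 the test called 0 of 21439 genes (4607 had an unadjusted p under 0.05), and Fat2 had a log2 fold change of 1.42 with an adjusted p of 0.0709, while without replicate 2 the count was again 2 of 10, beside 2471 higher and 1618 lower of 21901 genes tested. The call of Zic2 was also lost without CaMKIIβ RIP replicate 3 (adjusted p = 0.0566), without Input replicate 1 or 2 (0.258 and 0.317) and with library size alone as the scaling (0.0931), under which the split was 1 higher and 1 lower of the 10, and 683 higher and 1361 lower of all genes in place of 1117 and 751.

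IgG RIP was set against Input in the same way; the antibody, its handling and the library preparation cannot be told apart in this comparison. Fat2 rose 2.92-fold, Zic2 1.64-fold, Mab21l1 1.33-fold and Cbln1 1.31-fold, while Zic4 and Zic1 were 1.22-fold and 1.12-fold lower. The calls were 4 higher and 2 lower of 10, beside 20.1% of all 22342 genes called higher and 18.7% called lower (38.7% in either direction). Without Input replicate 2 the counts of all genes were 3150 higher and 2509 lower of 23729, in place of 4483 and 4170. The median log2 fold change was 0.24 for the 10 genes and -0.02 for all genes. This comparison uses the same Input libraries as the one before, and the values of the comparisons are not independent.

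Fat2 had 4304, 4262 and 4553 CPM in IgG RIP, against 1607 and 1506 CPM in Input. Every IgG RIP library lay far above both Input libraries, and the log2 fold change was 1.55 ± 0.06 (adjusted p = 2.45e-11, edgeR), above that of 98.9% of the genes tested. Zic2 had 263, 292 and 270 CPM in IgG RIP, against 174.4 CPM in both Input libraries, a log2 fold change of 0.71 ± 0.07 (adjusted p = 2.22e-07). Both calls held under each alternative tried in this comparison.

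The cerebellins took different directions. Cbln1 had 536, 508 and 530 CPM in IgG RIP, against 437 and 393 CPM in Input, a log2 fold change of 0.39 ± 0.06 (adjusted p = 9.26e-05, edgeR). Cbln3 had 664, 657 and 708 CPM in IgG RIP, against 775 and 773 CPM in Input, with -0.14 ± 0.06, which did not pass (adjusted p = 0.0693, edgeR). It passed as lower with library size scaling (-0.37, adjusted p = 3.67e-05) and without IgG RIP replicate 3 (-0.17, adjusted p = 0.0127). It also passed as lower with the replicate block (-0.17, adjusted p = 0.00479). These last settings are not separate evidence. The block term of IgG RIP replicate 3 is shared with no Input library, so that library adds nothing to the block fold change. Within each library the level of Cbln3 per kb was 0.75 to 0.858 times that of Cbln1 in CaMKIIβ RIP, 0.773 to 0.833 times in IgG RIP, and 1.11 to 1.23 times in Input. These ranges do not depend on how the libraries were scaled, and both RIP groups lay below both Input libraries.

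The 3 Zic genes did not move alike. Zic1 had 495, 501 and 518 CPM in IgG RIP, against 565 and 609 CPM in Input, a log2 fold change of -0.16 ± 0.06 (adjusted p = 0.041, edgeR). Zic4 had 28.2, 32.7 and 30.9 CPM in IgG RIP, against 38.8 and 38.9 CPM in Input (-0.29 ± 0.10, adjusted p = 0.0312). Per kb, Zic1 was at 1.03 to 1.33 times the level of Zic2 in CaMKIIβ RIP, 0.868 to 0.97 times in IgG RIP, and 1.64 to 1.76 times in Input. The call of Zic1 was lost with RLE scaling (adjusted p = 0.0647), in the fit of all 8 libraries, and without IgG RIP replicate 1 or 2 or either Input library. That of Zic4 was lost with DESeq2 (adjusted p = 0.0501), in the fit of all 8 libraries, and without IgG RIP replicate 1 or either Input library.

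Of the other transcription factors, none passed. Barhl1, a homeobox factor of granule cells, had 10.1, 9.45 and 9.54 CPM in IgG RIP, against 8.63 and 7.43 CPM in Input, libraries that lay apart with a log2 fold change of 0.33 ± 0.17. Neurod1 (0.14 ± 0.08) and Pax6 (0.03 ± 0.08) overlapped between the groups, and Neurod1 passed as higher without IgG RIP replicate 2 (0.21, adjusted p = 0.0367, edgeR). Mab21l1 had 29.1, 26.5 and 29.1 CPM in IgG RIP, against 22.1 and 22.0 CPM in Input (0.41 ± 0.11, adjusted p = 0.00633, edgeR), a call lost without Input replicate 1 (adjusted p = 0.0594) or 2 (0.0715). Nbea, whose exons cover part of Mab21l1 on the other strand, was at 23.8 ± 1 CPM per kb in IgG RIP (n = 3) and 20.3 ± 0.031 in Input, and rose by 0.28 ± 0.06 on the log2 scale (adjusted p = 0.00111). The part of Nbea reads in the value of Mab21l1 was not tested.

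Counting calls and libraries apart in this comparison, 5 of the 10 genes lay apart and higher in IgG RIP and 3 apart and lower, beside 26.8% and 33.8% of all genes tested. When libraries were scaled by their totals only, the all-gene median was -0.25 in place of -0.02 here, and -0.29 in place of -0.12 in CaMKIIβ RIP against Input. Under that scaling 3 of the 10 genes were called higher and 4 lower in IgG RIP, with Cbln3 (-0.37) and Pax6 (-0.19) added to the lower ones and Mab21l1 (0.19) no longer called. All genes then split into 2714 higher and 6345 lower, in place of 4483 and 4170.

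**Figure D4:**
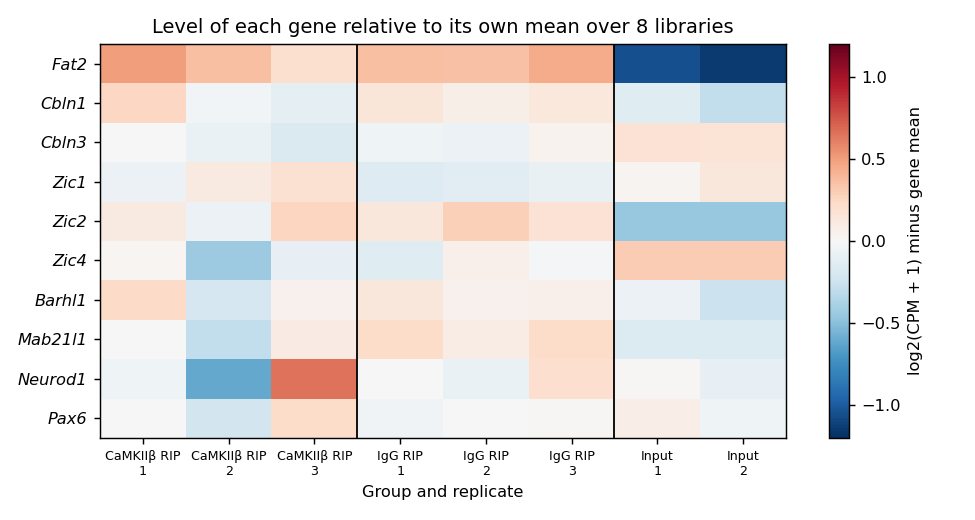
Level of each gene in each library relative to its own mean over the 8 libraries, on the log2(CPM + 1) scale, red above and blue below the mean. Fat2 and Zic2 are low in both Input libraries, Cbln3 and Zic4 are high in both, and Neurod1 is highest in CaMKIIβ RIP replicate 3 and lowest in replicate 2.

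Fat2 had the highest count of the 10 genes in every library. Its share of their counts was 60.5 to 66.2% in CaMKIIβ RIP, 64.6 to 65.03% in IgG RIP, and 39.4 to 40.7% in Input. Without Fat2 the other 9 summed to 2219 to 2501 CPM in CaMKIIβ RIP, 2331 to 2448 in IgG RIP, and 2316 to 2345 in Input. On this scale the ranges overlapped between each RIP group and Input. As a share of all counts they did not: the other 9 held 0.221 to 0.243% in CaMKIIβ RIP, 0.228 to 0.233% in IgG RIP, and 0.252 to 0.255% in Input, where both libraries were above every RIP library.

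Exon length differed among the 10 genes from 2492 bases for Mab21l1 to 14528 for Fat2, and was set beside the change. Among all genes of 10 kb or more, 1507 were tested in IgG RIP against Input, with a median log2 fold change of 0.14 and the middle 50% from -0.31 to 0.54. Genes under 1 kb had a median of -0.21. Fat2, at 1.55, lay well above the middle of its length class, while Pax6 (11694 bases, 0.03) and Zic4 (10335 bases, -0.29) lay near its centre or its lower edge. In CaMKIIβ RIP against Input the middle 50% of the long class ran from -0.41 to 0.43, and Fat2 was at 1.47.

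**Figure D5:**
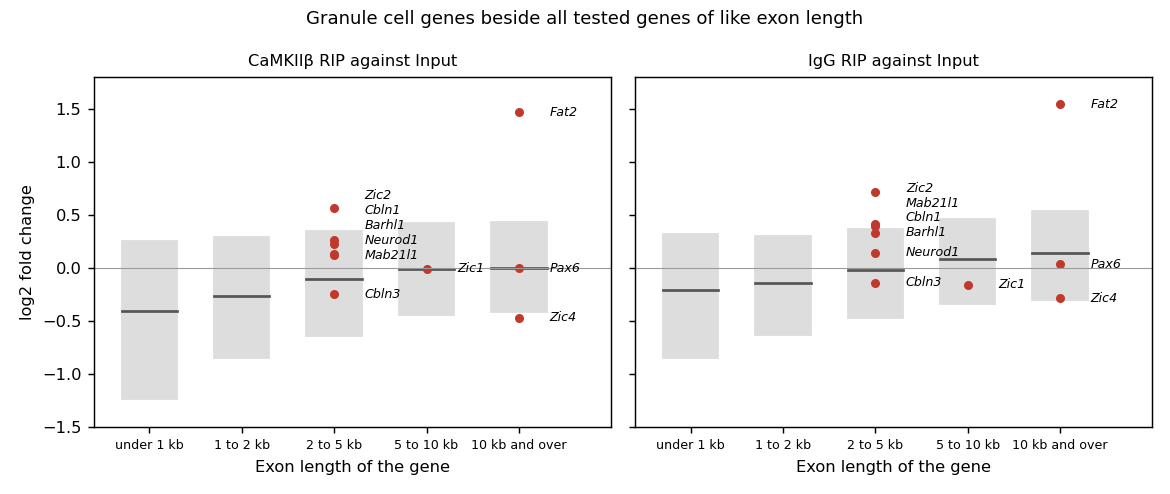
Log2 fold change of the 10 genes (red points) by class of exon length, in CaMKIIβ RIP against Input (left) and IgG RIP against Input (right), with grey boxes for the middle 50% and a line for the median of all genes tested in the class. Fat2 lies above the box of genes of 10 kb and over in both panels, and Zic4 lies at or below its lower part.

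Paralogs of the 10 genes included 3 other Fat cadherins. Fat1, a broadly expressed member of the family, rose by a log2 fold change of 1.41 ± 0.12 in CaMKIIβ RIP and 1.5 ± 0.06 in IgG RIP against Input (edgeR adjusted p = 0.00399 and 5.24e-11). Fat4 rose by 1.28 ± 0.16 and 1.34 ± 0.08. Fat3 rose in IgG RIP (0.65 ± 0.07) and did not pass in CaMKIIβ RIP (0.43 ± 0.13). Of 13 paralogs listed, 12 were matched and 11 tested. In CaMKIIβ RIP 2 were higher than in Input and 0 lower, beside 5.06% and 3.4% of all genes tested. In IgG RIP 4 were higher and 2 lower, beside 20.1% and 18.7% of all genes tested. The homeobox gene Barhl2 (0.71 ± 0.11) was among the higher ones. The cerebellin Cbln2 (-0.98 ± 0.18) and Neurod6 (-0.55 ± 0.12) were the lower ones. Cbln2 and Cbln4 were at 3.79 ± 0.207 and 1.62 ± 0.247 CPM per kb in Input, far under Cbln1 and Cbln3.

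Among the 12 further granule cell genes, CaMKIIβ RIP gave 4 above Input and 2 below, beside 5.06% and 3.4% of all genes tested. IgG RIP gave 5 above and 2 below, beside 20.1% and 18.7%. The median log2 fold changes of the 12 were 0.17 and 0.16. Gabra6 fell by 0.85 ± 0.16 and 0.88 ± 0.06 on the log2 scale, and Etv1, an ETS factor of maturing granule cells, by 1.05 ± 0.19 and 0.81 ± 0.06. Reln, a secreted matrix protein of granule cells, rose by 1.46 ± 0.14 and 1.51 ± 0.06. Slc17a7, the vesicular glutamate transporter of parallel fibres, rose by 0.51 ± 0.12 and 0.48 ± 0.06, and the receptors Grm4 and Grin2c passed as higher in both. Markers of the same cell type thus had calls on both sides of Input. The 10 genes had calls on both sides only in IgG RIP, with 0 called lower in CaMKIIβ RIP. Of the 2 called lower in IgG RIP, Zic4 was at -0.47 ± 0.19 in CaMKIIβ RIP and Zic1 at -0.01 ± 0.11. The fitted coefficient of variation between libraries was 0.477 in CaMKIIβ RIP against Input and 0.115 in IgG RIP against Input. Counts of calls in these comparisons are thus not on a like footing. In CaMKIIβ RIP against IgG RIP 0 of the 12 passed, with a median of 0.10.

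Of all genes tested against Input, CaMKIIβ RIP had 5.06% called higher and 3.4% lower, and for IgG RIP these shares were 20.1% and 18.7%, beside which the counts of further lists stand. Of 5 partners of Cbln1 at the synapse, which encode neurexins and postsynaptic receptors, 1 was higher in CaMKIIβ RIP (Nrxn2, 0.73 ± 0.13) and 4 in IgG RIP, and 0 were lower in either. Of 13 Purkinje cell genes, 1 rose and 2 fell in CaMKIIβ RIP against Input, and 6 rose and 4 fell in IgG RIP. Of 16 hippocampal and telencephalic genes, 2 were higher and 0 lower in CaMKIIβ RIP, and 10 higher and 2 lower in IgG RIP, with medians of 0.58 and 0.45 on the log2 scale. Astrocyte markers moved with these comparisons: 4 of 5 were higher in CaMKIIβ RIP and 5 of 5 in IgG RIP than in Input, and they summed to 730 to 853, 805 to 906 and 389 to 399 CPM per kb in CaMKIIβ RIP, IgG RIP and Input. Their part in the values of Pax6, a gene also expressed in astrocytes, was not tested.

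The mean profile of the 10 genes over the 8 libraries was close to flat, between -0.19 (Input replicate 2) and 0.13 (CaMKIIβ RIP replicate 3) on the centred log2 scale. Of 13091 other named genes with a mean of at least 2 CPM, the 5 nearest to it were Spp1, Pced1a, Nrxn3, Psmd11 and Slc6a6, with root-mean-square differences of 0.033 to 0.041 over 8 libraries. Among the 10 genes themselves the difference from the mean profile was smallest for Barhl1 (0.074) and Mab21l1 (0.094), and largest for Fat2 (0.56). A mean over the 10 thus describes few of them.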

How the data were processed

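The 8 libraries were deposited as 1 table of raw read counts per gene, with exon length as a further column. The authors made the counts, per the submitters' processing notes, with featureCounts 2.0.1 after alignment by STAR 2.7.3a to GRCm38.p6, and with Trim Galore 0.6.4 and cutadapt 2.10 for trimming. Whether counting used strand or reads with several positions, and the annotation version, are not given in the sources used here.

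Symbols came from RefSeq genes on GRCm38.p6 that shared at least 0.5 of the joint span and were mutual best partners. This named 34128 of 55401 genes, holding 96.1% of counts. Some listed genes, Th and Aldh1l1 among them, had no such match and were not used.

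Each comparison used only its own groups, over all genes passing filterByExpr (minimum count 10, minimum total 15). The test was the quasi-likelihood F test of edgeR 4.0.16 (R 4.3.3) with TMM scaling, and the threshold a Benjamini-Hochberg adjusted p under 0.05. It was first tested on simulated data. Alternatives were RLE and library size scaling, no filter, DESeq2 1.42.0, 1 fit over the 8 libraries, a replicate block and each library left out. Figures were drawn with matplotlib 3.10.9.

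The genes and lists were chosen with earlier results of these data known. The text names the 10 genes, genes overlapping them, up to 3 members of each list by Input level, defining markers (among them Gabra6, Pcp2, Prox1, Atoh1 and Neurod6) and the 5 genes nearest in profile. Reln, Etv1, Grin2c, Meis1, Tlx3, Fat3, Fat4, Barhl2, Cbln2, Cbln4, Lhx5, Foxp2 and Hoxb2 lie outside that rule and were named after their values were seen. Results for some genes are not reported here.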

Additional observations from a re-analysis of the deposited data

How the results depend on the processing

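The count of called genes among the 10 was 0 in CaMKIIβ RIP against IgG RIP under each alternative tried. In CaMKIIβ RIP against Input it was 2 higher and 0 lower, and 1 higher and 1 lower with library size alone as the scaling; leaving out 1 library gave 0 to 2 higher. In IgG RIP against Input it was 4 higher and 2 lower. The lower count there was 1 with RLE scaling, 1 with DESeq2, 4 with library size scaling and 0 in the fit of all 8 libraries, which called 2 higher; leaving out 1 library gave 0 to 3 lower. The cause of these shifts was not tested. Of all genes in CaMKIIβ RIP against Input, 1117 were higher and 751 lower; DESeq2 gave 2102 and 1346, no filter 1854 and 1012, the fit of all 8 libraries 2070 and 1763, the block 1986 and 2219, and leaving out Input replicate 1 or 2 gave 461 and 384, or 256 and 144. In IgG RIP against Input the fit of all 8 libraries gave 2023 and 1653 in place of 4483 and 4170, and Cbln1, Mab21l1, Zic1 and Zic4 lost their calls there.

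Fold changes that turned in sign were without a call, except Pax6. Not all were small, as Neurod1 reached -0.35 in CaMKIIβ RIP against IgG RIP without CaMKIIβ RIP replicate 3. In IgG RIP against Input the log2 fold change of Pax6 was -0.19 (edgeR adjusted p = 0.0495) with library size scaling and -0.023 in the fit of all 8 libraries. It was -0.034 to 0.096 with 1 library left out. Neurod1 was at -0.086 with library size scaling. In CaMKIIβ RIP against Input, Mab21l1 was at -0.049 and Neurod1 at -0.038 with library size scaling. Pax6 and Zic1 were at 0.036 and 0.030 with RLE scaling, 0.065 and 0.059 without a count filter, and 0.036 and 0.030 with DESeq2. With 1 library left out, Neurod1 ran from -0.26 to 0.45, Pax6 from -0.11 to 0.16 and Zic1 from -0.079 to 0.093. In CaMKIIβ RIP against IgG RIP the ranges with 1 library left out were -0.16 to 0.076 for Barhl1, -0.18 to 0.0042 for Cbln1, -0.097 to 0.058 for Fat2, -0.35 to 0.31 for Neurod1, -0.092 to 0.13 for Pax6 and -0.23 to 0.0039 for Zic4.

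Libraries with the same number did not deviate together (correlations of deviations from the group means between -0.073 and 0.10). The deviations of the 2 Input libraries mirror each other, and such correlations cannot settle whether equal numbers share animals. With the replicate block Neurod1 was at -0.033 against IgG RIP and -0.29 against Input in CaMKIIβ RIP. Cbln1 passed in CaMKIIβ RIP against Input (0.33, adjusted p = 0.0375) and Cbln3 in IgG RIP against Input (-0.17, adjusted p = 0.00479). The counts were thus 3 higher and 0 lower, and 4 higher and 3 lower. RIP libraries numbered 3 share their block term with no Input library and add nothing to block fold changes against Input. The block call of Cbln1 therefore rests on 2 libraries in each group. Leaving out CaMKIIβ RIP replicate 3 without a block put Neurod1 at -0.26 and Cbln1 at 0.34 (edgeR adjusted p = 0.186 for Cbln1). The block values against Input thus cannot show an effect of pairing alone.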
